A study of Mus musculus with 13 samples.

Results

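The 5′ J genes of the mouse T cell receptor (TCR) α locus, TRAJ41 and higher, are those that lie nearest the V genes. Their clonotypes were chosen by J name alone, taking every functional or out-of-frame clonotype whose J gene carried a number of 41 or more. Clonotypes were told apart by their V and J genes and by the nucleotides of the CDR3, the hypervariable stretch that spans the V-J junction. It was functional when the CDR3 translated without a stop codon or frameshift, and out-of-frame when its length was not a multiple of 3 bases. The rule took 16536 of the 89799 functional and out-of-frame clonotypes with a TRAJ gene, made up of 14819 of 78433 functional and 1717 of 11366 out-of-frame clonotypes. The functional ones held 1431311 of 7638165 functional counts.

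The cells were rescued regulatory T (Treg) cells from 13 samples of male C57BL/6 Foxp3LSL/y Cd4creERT2 mice, in which a stop cassette silences Foxp3 until Cre removes it. Cre-ERT2 is expressed from the Cd4 locus and was activated on postnatal day 14 by giving 4-hydroxytamoxifen (4-OHT) once, so cells of the CD4 lineage were the ones that could be rescued. The sort took TCRβ+CD4+GFP+Thy1.1− cells from combined lymph nodes and spleens, at 8 weeks of age (1.5 months after 4-OHT, n = 2) and at 3.5 months (3 months after, n = 4), 5.5 months (5 months after, n = 2) and 7.5 months (7 months after, n = 5). All groups carry the same alleles and had the same treatment, so the comparisons are between time points and, within each sample, between J genes or classes of clonotypes.

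A TCRα gene is made by joining 1 of many V genes directly to 1 of many J genes, with no D gene between them. First rearrangements favour V genes near the J cluster and J genes at its 5′ end. Because the locus is joined by deletion and the other allele stays open to the recombinase, further rounds replace the first join with V genes farther upstream and J genes farther downstream until a receptor is selected in the thymus. The enzyme TdT adds bases at the junction that neither segment encodes. An out-of-frame α chain makes no receptor, so it is not selected on what the receptor binds, and it is carried by a cell that has a working chain on its other allele.

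The region ran from the start of Traj61 to the end of Traj41, chr14:54155005-54176325 on the plus strand of GRCm38, and covered 21.3 kb of a J cluster of 63.8 kb. GENCODE lists 21 J genes there, 5 of them pseudogenes, and 15 of the 21 were named in the tables, among 46 TRAJ names in all. TRAJ60, TRAJ59, TRAJ55, TRAJ54, TRAJ51 and TRAJ46 had no row in the tables used here. TRAJ41, the innermost gene that the rule took, had 7 out-of-frame clonotypes with 11 counts and 0 functional ones. TRAJ61, the first J gene of the cluster, had 1 functional and 2 out-of-frame clonotypes with 5 counts in all. The other 13 genes each had over 100 functional clonotypes, and the values by gene below are theirs.

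The germline sequences of 6 of these genes carry the contrasts described below, and they were read from the GENCODE transcripts of GRCm38 from 5′ to 3′. The bases that belong to the CDR3 are in capitals, and the conserved framework bases that follow are in lower case. TRAJ58 is the member nearest the V genes with more than 1 functional clonotype, TRAJ42 the farthest from them, TRAJ43 had the highest share of functional clonotypes, TRAJ44 and TRAJ45 differed most between functional and out-of-frame clonotypes, and TRAJ52 shares the longest germline stretch of the CDR3 with TRAJ53.
TRAJ58, chr14:54157280-54157342: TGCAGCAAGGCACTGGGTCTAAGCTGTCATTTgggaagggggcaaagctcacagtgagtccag
TRAJ52, chr14:54165316-54165381: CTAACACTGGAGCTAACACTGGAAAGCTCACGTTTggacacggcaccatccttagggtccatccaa
TRAJ45, chr14:54172828-54172890: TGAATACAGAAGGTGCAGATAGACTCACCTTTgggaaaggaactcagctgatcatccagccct
TRAJ44, chr14:54173690-54173750: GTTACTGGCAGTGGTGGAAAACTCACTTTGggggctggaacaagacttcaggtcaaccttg
TRAJ43, chr14:54174742-54174798: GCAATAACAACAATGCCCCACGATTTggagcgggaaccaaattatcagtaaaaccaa
TRAJ42, chr14:54175773-54175836: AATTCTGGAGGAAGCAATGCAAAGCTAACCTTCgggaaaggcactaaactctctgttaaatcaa
The CDR3 part is 26 bases long in TRAJ43 and TRAJ47 and 35 in TRAJ52 and TRAJ53. It ends in the codon TTT in 11 of the 13 genes, in TTC in TRAJ42 and in TTG in TRAJ44.

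Libraries held 509818 to 936831 counts each and gave 868 to 1518 functional and 100 to 182 out-of-frame clonotypes of the region. Some libraries held the same clonotypes. A median of 37 clonotypes of the region was found in both libraries of a pair, but replicate 1 at 1.5 months and replicate 4 at 3 months shared 177, which is 10.4% and 13.01% of each, and replicate 4 at 3 months and replicate 1 at 5 months shared 162, or 11.9% and 14.5%. The 11 within-sample comparisons and the usage tests were also run after removing any clonotype whose count was 100 or more times larger in a different library, which took out 1.22% to 9.31% of a library's clonotypes of the region.

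The region took a larger share of functional than of out-of-frame clonotypes in every sample. It held 18.9% ± 0.765 (SD, n = 13) of functional clonotypes, with a lowest value of 17.9%, a median of 18.8% and a highest of 20.2%. Among out-of-frame clonotypes it held 15.1% ± 1.09, with 13.4%, 14.9% and 16.9% in the same order. The lowest functional share therefore lay above the highest out-of-frame share. The difference was 3.80 percentage points ± 1.30 (SD), higher in functional clonotypes in 13 of 13 samples (two-sided exact sign-flip permutation test, p = 0.000244, the smallest it can give, adjusted p = 0.000384 over 11 comparisons). A gene outside the region moved this value. TRAJ32 held 16.6% ± 2.47 of out-of-frame but 2.47% ± 0.309 of functional clonotypes. With TRAJ32 left out of both classes the region held 19.3% and 18.1%, a difference of 1.26 points in the same direction in 12 of 13 samples (exact p = 0.00586). Summed counts in place of clonotypes gave a difference of 0.856 points (exact p = 0.0688).

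**Figure D1:**
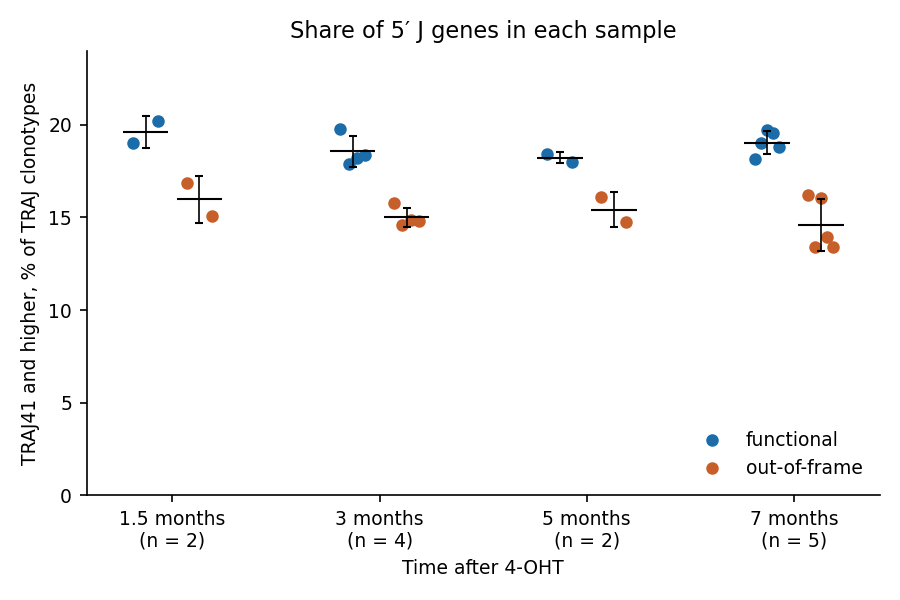
Share of TRAJ41-and-higher clonotypes among all TRAJ clonotypes of a class (%, vertical axis) in each of 13 samples by time after 4-OHT. Points are samples and bars the mean ± SD of a group. Functional shares sit between 17.9% and 20.2% and out-of-frame shares between 13.4% and 16.9% at all 4 times.

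Single members differed up to several-fold in use. TRAJ43 led with 2.38% ± 0.205 (SD, n = 13) of functional clonotypes, ranging from 1.95% to 2.66% with a median of 2.41%. TRAJ42 followed with 2.27% ± 0.210 (2.03% to 2.68%, median 2.22%) and TRAJ49 with 2.25% ± 0.193 (1.96% to 2.57%, median 2.28%). These 3 means lay within 1 SD of each other, and each of the 3 ranges lay above the highest value of any other member. TRAJ44, TRAJ56 and TRAJ48 came next at 1.55% ± 0.181, 1.54% ± 0.135 and 1.53% ± 0.181, and TRAJ57 and TRAJ52 at 1.50% ± 0.124 and 1.45% ± 0.162, with overlapping ranges. TRAJ50 held 1.12% ± 0.208, and TRAJ53, TRAJ58, TRAJ45 and TRAJ47 held 0.895% ± 0.142, 0.836% ± 0.129, 0.788% ± 0.117 and 0.738% ± 0.155. Just outside the region, TRAJ40 held 3.15% ± 0.164 and TRAJ39 2.41% ± 0.190. Use did not follow position closely, since the Pearson correlation of share with distance from Traj61 over the 13 genes was 0.373 (Spearman 0.412), given as a description because the shares come from the same libraries and sum to a fixed whole.

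**Figure D2:**
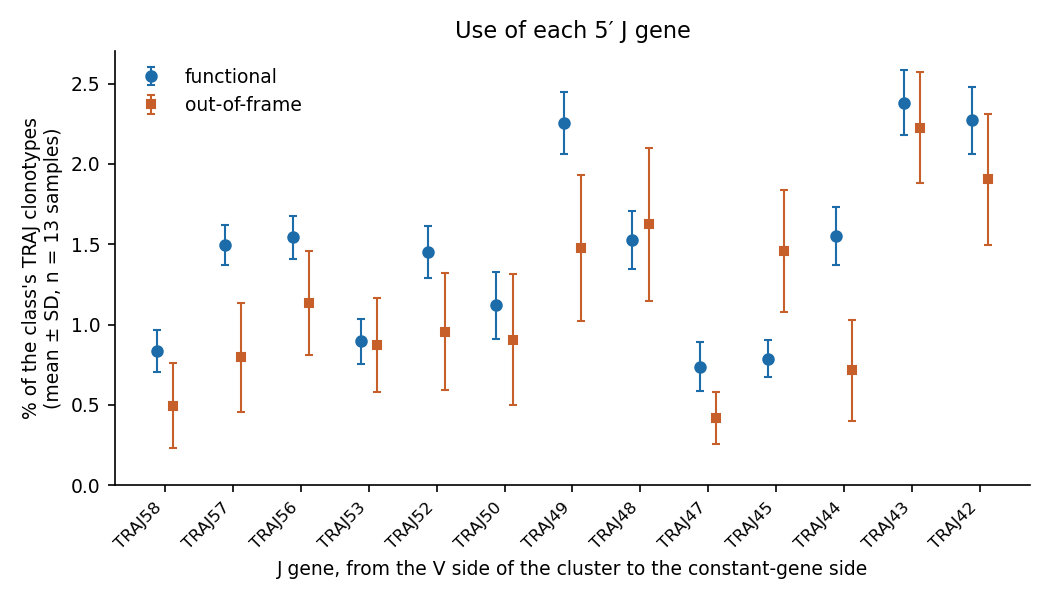
Share of each J gene among functional and out-of-frame TRAJ clonotypes (%, vertical axis, mean ± SD, n = 13 samples), with genes in their order along the locus. TRAJ43, TRAJ42 and TRAJ49 lead among functional clonotypes, and TRAJ45 is the gene that lies clearly higher among out-of-frame than functional ones.

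Single members differed in their use between the 2 classes, with some higher among functional clonotypes and 1 lower. In edgeR's quasi-likelihood test with sample as a term, 6 of the 13 members were higher among functional clonotypes and 1 was lower at an adjusted p under 0.05, against 27.9% of the 43 J genes tested called higher and 18.6% called lower. TRAJ44 rose most, from 0.716% ± 0.314 of out-of-frame to 1.55% ± 0.181 of functional clonotypes, a log2 fold change of 0.92 ± 0.17 (SE, adjusted p = 9.25e-07). TRAJ57 was higher by 0.67 ± 0.16 (adjusted p = 2.56e-04) and TRAJ47 by 0.65 ± 0.20 (adjusted p = 0.00338). TRAJ58, TRAJ49 and TRAJ52 were higher by 0.55 ± 0.19, 0.40 ± 0.12 and 0.40 ± 0.15 (edgeR adjusted p = 0.0130, 0.00329 and 0.0215). TRAJ45 went the other way, with 1.46% ± 0.382 of out-of-frame and 0.788% ± 0.117 of functional clonotypes, a log2 fold change of -1.07 ± 0.15 (edgeR adjusted p = 1.47e-10). TRAJ42, TRAJ43, TRAJ48, TRAJ50, TRAJ53 and TRAJ56 did not pass, with log2 fold changes from -0.25 in TRAJ48 (adjusted p = 0.107) to 0.24 in TRAJ56 (adjusted p = 0.173). The median log2 fold change was 0.24 over the members and 0.04 over all 43 genes.

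Scaling by library totals alone moved the median log2 fold change over all genes to 0.24. It then called 28 of all 43 genes, and of the 13 members 8 higher and 1 lower. With summed counts 10 of all 43 genes were called. Of the 13 members 2 were then higher and 1 lower, and TRAJ47, TRAJ49, TRAJ52 and TRAJ58 lost their calls. Their log2 fold changes on summed counts were 1.00, 0.51, 0.11 and 1.14, so TRAJ52 alone of these 4 was smaller than by clonotypes. TRAJ52 also lost its call without replicate 2 at 3 months (edgeR adjusted p = 0.0527) and without replicate 5 at 7 months (adjusted p = 0.0740). TRAJ48 was called lower without replicate 4 at 3 months (-0.33, adjusted p = 0.0136) and when in-frame rows with a stop codon joined the out-of-frame class (-0.29, adjusted p = 0.0397).

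The V genes joined to the 5′ J genes were displaced towards the J cluster. TRAV17 to TRAV21, single-gene families that lie 278 to 348 kb before Traj61, made up 12.6% ± 0.878 (SD, n = 13) of the region's functional clonotypes, with a lowest sample of 10.9%, a median of 12.7% and a highest of 13.8%. In clonotypes of all other J genes they made up 0.805% ± 0.143, with 0.628%, 0.773% and 1.17% in the same order. TRAV22 and TRAV23 lie nearer the cluster and had 0 and 2 functional clonotypes in the region. No sample of either set came near the other, and the difference held in 13 of 13 samples (exact sign-flip permutation test, p = 0.000244, adjusted p = 0.000384). The out-of-frame clonotypes had 11.3% ± 3.33 in the region and 0.950% ± 0.442 elsewhere, higher in the region in 13 of 13 samples (exact p = 0.000244, adjusted p = 0.000384). At the far end of the locus, TRAV1 and TRAV2 made up 0.0520% ± 0.0622 of the region's functional clonotypes and 1.32% ± 0.181 of the others, lower in the region in 13 of 13 samples with the same p-values.

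TRAV21, TRAV19 and TRAV17 held nearly all of the J-proximal clonotypes. TRAV21, whose only gene TRAV21-DV12 lies at chr14:53875984-53876752 and 278 kb before Traj61, made up 5.01% ± 0.624 of the region's functional clonotypes (3.49% to 5.91%, median 5.12%) against 0.207% ± 0.0678 elsewhere, a log2 fold change of 4.60 ± 0.11 (SE, edgeR adjusted p = 2.74e-109). TRAV19, at chr14:53845234-53845827, made up 3.78% ± 0.530 (2.61% to 4.50%, median 3.75%) against 0.186% ± 0.0770, a log2 fold change of 4.35 ± 0.12 (edgeR adjusted p = 1.16e-96). TRAV17, at chr14:53806639-53807115, made up 3.65% ± 0.521 (2.92% to 4.58%, median 3.69%) against 0.396% ± 0.0740, a log2 fold change of 3.24 ± 0.11 (edgeR adjusted p = 2.45e-82). TRAV18 had 24 functional clonotypes in the region and 3 elsewhere, and TRAV20, annotated as a pseudogene, had 7 in each. Neither passed the filter on low counts, so neither was tested in the main fit. Without that filter 29 V family names were tested, TRAV18 and TRAV20 among them, and 10 were called higher and 10 lower.

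**Figure D3:**
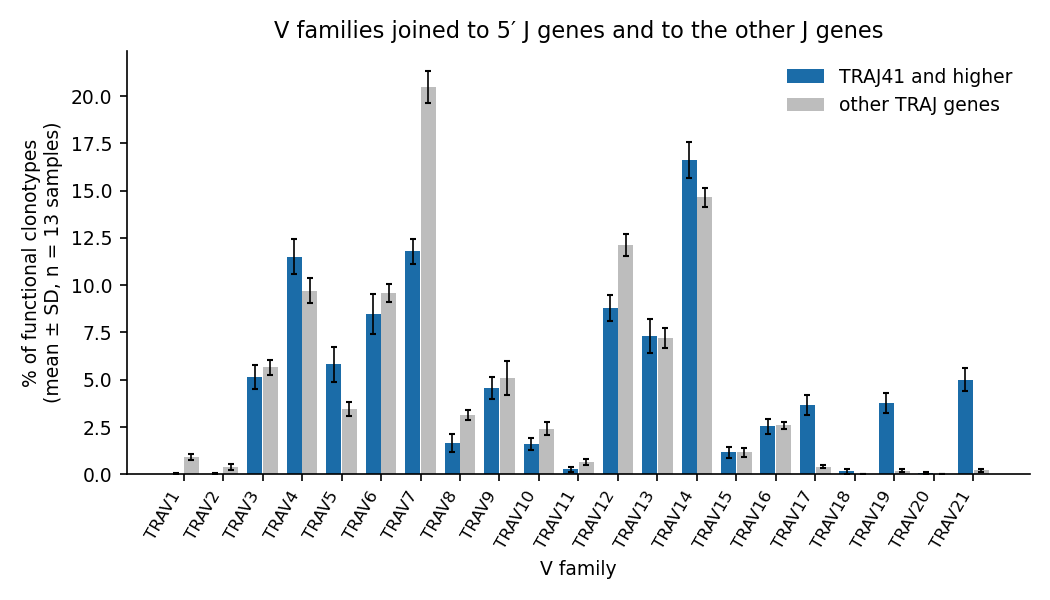
Share of each TRAV family (%, vertical axis) among functional clonotypes of TRAJ41 and higher and of the other TRAJ genes; bars are means and whiskers SD over 13 samples, with families in numerical order. TRAV17, TRAV19 and TRAV21 stand at 3.65%, 3.78% and 5.01% beside the 5′ J genes and under 0.4% beside the others, and TRAV7 is at 11.8% and 20.5%.

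Among the 19 families tested, 6 were higher with the 5′ J genes (31.6%) and 8 lower (42.1%). Besides the 3 J-proximal families, TRAV5 rose to 5.82% ± 0.927 from 3.44% ± 0.375 (log2 fold change 0.79 ± 0.06, edgeR adjusted p = 7.70e-27), TRAV4 to 11.5% ± 0.933 from 9.71% ± 0.667 (0.28 ± 0.04, adjusted p = 1.07e-09) and TRAV14 to 16.6% ± 0.929 from 14.7% ± 0.501 (0.23 ± 0.04, adjusted p = 2.55e-09). TRAV14 was the commonest family of 11 of the 13 genes, and TRAV7 of TRAJ45 and TRAJ42. Of the families that fell, TRAV7 had the largest share, 11.8% ± 0.663 against 20.5% ± 0.847 (-0.76 ± 0.04, edgeR adjusted p = 5.22e-52). TRAV1 had 5 clonotypes in the region and 583 elsewhere (-4.57 ± 0.32, edgeR adjusted p = 1.59e-33), and TRAV2 had 3 and 254 (-4.00 ± 0.41, adjusted p = 2.51e-18). TRAV12 held 8.79% ± 0.694 against 12.1% ± 0.588, TRAV8 1.66% ± 0.492 against 3.14% ± 0.279 and TRAV11 0.279% ± 0.132 against 0.637% ± 0.161, with log2 fold changes of -0.43, -0.86 and -1.20 that passed the same test, as did TRAV10 at -0.56 and TRAV6 at -0.14. In out-of-frame clonotypes 7 of 18 families were called, TRAV17, TRAV19, TRAV21 and TRAV5 higher and TRAV1, TRAV7 and TRAV12 lower. TRAV14, TRAV4 and TRAV8 had the opposite sign there and were not called, at -0.11, -0.20 and 0.42. TRAV11 kept its sign but was not called there (-0.66, edgeR adjusted p = 0.0622) or with single V genes (-0.51, adjusted p = 0.0627). TRAV14 and TRAV4 also lost their calls on summed counts, at -0.03 and 0.12 (edgeR adjusted p = 0.759 and 0.378).

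The same displacement was seen over the whole V locus when V genes were placed by their distance from Traj61. Genes within 350 kb gave 12.7% ± 0.854 of the region's functional clonotypes and genes from 350 to 500 kb gave 34.2% ± 1.96, against 0.805% ± 0.143 and 7.35% ± 0.588 for the other J genes. From 500 to 750 kb the order turned, with 30.9% ± 1.204 against 34.0% ± 0.942 and ranges that just overlapped. Farther out the region stayed lower, with 8.65% ± 0.835 against 27.5% ± 0.680 from 1000 to 1250 kb and 9.09% ± 0.673 against 21.4% ± 1.21 from 1250 to 1750 kb. The median V gene lay 514 kb upstream in the region and 928 kb upstream for the other J genes. Many mouse V genes beyond TRAV17 have near-identical copies at other distances, so a read can be assigned to the wrong copy and these distance shares are less certain than those of TRAV17 to TRAV21.

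Within the region the J-proximal V share fell with distance from the V genes. TRAJ58 had 33.2% ± 6.18 of its functional clonotypes joined to TRAV17 to TRAV21 (SD, n = 13, 21.6% to 42.5%) and TRAJ57 had 31.1% ± 4.13. TRAJ56 had 23.2% ± 3.51 and TRAJ53 18.9% ± 4.07. The 6 genes from TRAJ52 to TRAJ45 lay between 8.32% in TRAJ47 and 11.9% in TRAJ48 with overlapping ranges. TRAJ44, TRAJ43 and TRAJ42 had 5.62% ± 2.09, 4.53% ± 2.25 and 4.95% ± 1.52, and TRAJ40 and TRAJ39 beyond the boundary 3.00% ± 1.23 and 2.89% ± 1.43. Out-of-frame clonotypes, pooled over samples because they were few, ran from 33.3% of 57 in TRAJ58 (Wilson 95% interval 22.5% to 46.3%) to 1.83% of 219 in TRAJ42 (0.713% to 4.60%). Across the 13 genes the share correlated with distance from Traj61 at Pearson -0.943 and Spearman -0.951 in functional and at -0.967 and -0.973 in out-of-frame clonotypes. These correlations are descriptions across genes of the same libraries.

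**Figure D4:**
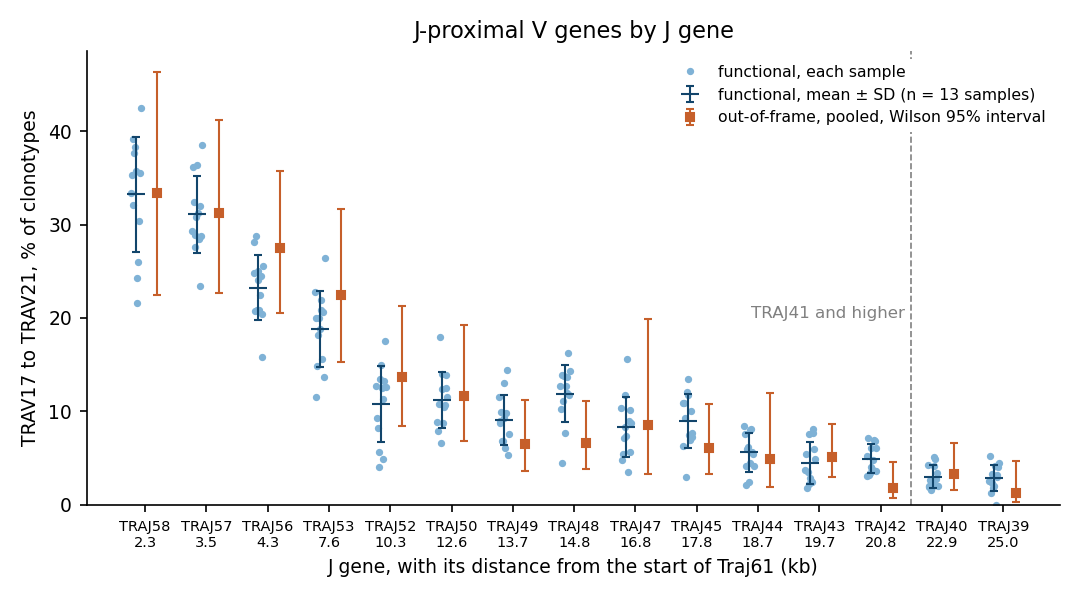
Share of TRAV17 to TRAV21 among the clonotypes of each J gene (%, vertical axis), with genes in locus order and their distance from the start of Traj61 in kb below the names. Circles are samples (functional), bars their mean ± SD (n = 13), squares pooled out-of-frame clonotypes with Wilson 95% intervals. Both classes fall from about 33.2% at TRAJ58 to under 5% at TRAJ42.

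The 3 families were not spread evenly along the members. In TRAJ58, TRAV21 led with 16.8% of the pooled functional clonotypes, ahead of TRAV17 with 8.95% and TRAV19 with 7.59%. TRAV21 also led in TRAJ57, with 13.7% against 10.7% for TRAV19 and 6.31% for TRAV17. In TRAJ56 TRAV19 was highest, with 8.87% against 7.88% for TRAV21. In TRAJ42, the member farthest from the V genes, TRAV17, the farthest of the 3 families from the J cluster, led with 2.19% against 1.46% for TRAV21 and 1.29% for TRAV19. These are pooled shares, and their order within a gene was not tested. TRAV1 and TRAV2 together had 8 clonotypes in the region, of which TRAJ43 and TRAJ42 held 3 each and TRAJ50 and TRAJ47 held 1 each.

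CDR3s of the region were longer than those of other J genes. Their mean length was 13.82 ± 0.0565 amino acids (SD, n = 13, 13.71 to 13.90 over samples) against 13.42 ± 0.0259 (13.38 to 13.48), longer by 0.400 in 13 of 13 samples (exact sign-flip permutation test, p = 0.000244, adjusted p = 0.000384). Shares were lower from 10 to 13 amino acids and higher from 14 to 18. CDR3s of 13 amino acids made up 23.9% ± 1.27 of the region's clonotypes and 32.1% ± 0.918 of the others, and those of 12 made up 11.4% ± 0.996 and 15.1% ± 0.774. The commonest length of the region, 14 amino acids, differed little, with 31.2% ± 1.27 against 30.1% ± 0.744. At 15 amino acids the shares were 18.5% ± 1.17 and 12.4% ± 0.698, at 16 they were 8.21% ± 0.791 and 3.63% ± 0.505, and at 17 they were 2.03% ± 0.403 and 0.759% ± 0.137.

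The bases that made up this length were read by matching both ends of each CDR3 to its germline V and J gene, which succeeded for 99.6% of functional clonotypes. The germline J stretch was 30.7 bases in the region and 28.9 elsewhere, longer by 1.78 bases. The ends of the region's J genes had lost 3.41 ± 0.0909 bases against 2.96 ± 0.0626, more by 0.458 in 13 of 13 samples (exact p = 0.000244, adjusted p = 0.000384). That left 27.3 against 26.0 bases of J, more by 1.33. The V side differed by 0.10 bases and the bases between the matches by -0.176. The CDR3 as a whole was longer by 1.21 bases, so the gain in J bases exceeded the gain in length. Against TRAJ24 to TRAJ40 alone the extra trimming was 0.122 bases (exact p = 0.00122), and against TRAJ2 to TRAJ20 it was 0.535 (exact p = 0.000244).

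Single members followed their germline lengths. TRAJ43 and TRAJ47, with 26 germline bases, had mean CDR3s of 12.42 ± 0.122 and 12.64 ± 0.306 amino acids, the shortest of the region. TRAJ49 with 28 bases had 13.31 ± 0.109. TRAJ53 and TRAJ52, with 35 bases, had 14.85 ± 0.216 and 14.84 ± 0.163, the longest, and over the 13 genes the correlation with germline length was 0.973 (Pearson) and 0.951 (Spearman). Genes of the same germline length still differed. Of the 5 genes with 32 bases, TRAJ50 had the longest CDR3s, at 14.52 ± 0.161 amino acids, with 2.46 ± 0.406 bases trimmed and 2.03 ± 0.221 inserted. TRAJ45 had the shortest, at 13.90 ± 0.228, with 4.85 ± 0.510 bases trimmed and 2.68 ± 0.437 inserted.

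**Figure D5:**
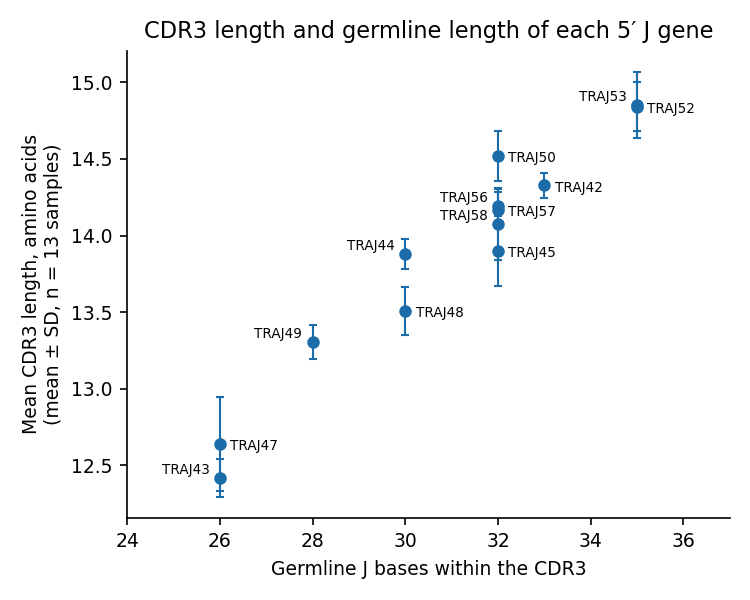
Mean CDR3 length of functional clonotypes of each 5′ J gene (amino acids, vertical axis, mean ± SD over 13 samples) against the germline J bases within the CDR3 (horizontal axis). Length rises from 12.42 amino acids at 26 bases (TRAJ43) to 14.85 at 35 bases (TRAJ53).

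Fewer bases were inserted between V and J, by a small margin that depended on the J genes it was set against. By the deposited segment positions the region's functional clonotypes carried 2.07 ± 0.104 inserted bases (SD, n = 13, 1.89 to 2.25) against 2.17 ± 0.0492 (2.09 to 2.27), with overlapping ranges, and lower in 11 of 13 samples (exact sign-flip permutation test, p = 0.000977, adjusted p = 0.00134). The share without any inserted base was 33.7% ± 1.80 against 30.3% ± 0.910, higher in 13 of 13 samples (exact p = 0.000244, adjusted p = 0.000384). Against TRAJ24 to TRAJ40 alone the differences were larger, at -0.259 bases and 5.70 percentage points (each exact p = 0.000244). Against the 3′ J genes TRAJ2 to TRAJ20 alone neither was detected. There the region had 0.0453 bases more (exact p = 0.160) and a share higher by 0.770 percentage points (exact p = 0.240). Counting the bases anew from the germline matches lowered the share without inserted bases to 16.1% against 12.5% and gave 2.77 against 2.94 inserted bases, with both directions kept in 13 of 13 samples. TRAJ24, one of the genes of the TRAJ24 to TRAJ40 set, went from 5.92 to 2.66 inserted bases in that recount. The comparisons with TRAJ24 to TRAJ40 alone used the deposited positions and were not repeated with the recount. Among members, TRAJ53 had the fewest inserted bases (1.55 ± 0.212) and the most clonotypes with none (43.0% ± 5.20), and TRAJ47 and TRAJ45 had the most inserted bases, 2.77 ± 0.640 and 2.68 ± 0.437. Of all functional clonotypes of the region, 15.1% carried 1 inserted base, 15.3% carried 2, 13.5% carried 3, and 3.72% carried 7 or more. Out-of-frame clonotypes of the region carried 2.69 ± 0.340 inserted bases against 2.47 ± 0.186 elsewhere (exact p = 0.0686). That difference was 0.0181 with at least 2 counts and turned to -0.0660 with at least 10. It was 0.488 against TRAJ2 to TRAJ20 alone (exact p = 0.000732) and 0.0319 against TRAJ24 to TRAJ40 alone (exact p = 0.8345).

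Clone sizes showed no difference that held in all measures. The median functional clonotype had 62.0 ± 20.1 counts in the region (SD, n = 13) and 55.6 ± 16.0 elsewhere, higher in 13 of 13 samples (exact p = 0.000244), while the mean was 98.5 ± 27.3 and 98.9 ± 19.8 counts. On the log2 scale, the measure chosen for the comparison, the region was higher by 0.07 in 10 of 13 samples (exact sign-flip permutation test, p = 0.0679). In bulk libraries more cells of a clone and more TCRα RNA per cell cannot be told apart. Clonotypes with a single count made up 18.8% ± 6.13 against 16.7% ± 5.19, and those above 0.1% of counts 1.40% ± 0.472 against 1.68% ± 0.543. Out-of-frame clonotypes of the region were larger than other out-of-frame clonotypes, with mean log2 counts of 4.03 ± 0.41 against 3.66 ± 0.23. They were higher in 12 of 13 samples (exact p = 0.00220, adjusted p = 0.00269), and by 0.28 with TRAJ32 left out (exact p = 0.0139). The difference was 0.772 with at least 2 counts and 0.283 with at least 10 (each exact p = 0.000244). Between members, mean log2 counts of functional clonotypes ran only from 4.72 ± 0.78 in TRAJ47 to 5.09 ± 0.66 in TRAJ57.

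The largest functional clonotype of the region in a sample held between 0.262% and 2.20% of functional counts, with a median of 0.602%. The clonotype with the highest share of functional counts at each time point is printed as its CDR3 nucleotide sequence. So is the out-of-frame clonotype with the highest share of its sample's out-of-frame counts. Bases that the deposited positions place in neither V nor J are in capitals. These positions give TRAJ49 31 bases in the first sequence and TRAJ56 33 in the last, more than the 28 and 32 germline CDR3 bases read here, so not every lower-case base there is part of that germline stretch.
TRAV13-2 with TRAJ49, 1.5 months replicate 1: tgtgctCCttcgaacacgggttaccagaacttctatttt
TRAV14-3 with TRAJ42, 3 months replicate 1: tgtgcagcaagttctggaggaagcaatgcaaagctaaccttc
TRAV3-3 with TRAJ43, 5 months replicate 1: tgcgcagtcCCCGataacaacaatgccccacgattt
TRAV4-4-DV10 with TRAJ49, 7 months replicate 4: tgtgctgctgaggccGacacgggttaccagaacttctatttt
Out-of-frame TRAV3-3 with TRAJ56, 7 months replicate 2: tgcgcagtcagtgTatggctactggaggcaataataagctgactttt
The TRAJ49 clonotype at 7 months had the highest share, with 10499 counts or 2.20% of its sample's functional counts (Wilson 95% interval 2.16% to 2.24%). The TRAJ42 clonotype at 3 months had 10124 counts (1.36%, 1.33% to 1.38%), and a TRAJ43 clonotype of replicate 2, not printed here, had nearly the same share with 11959 counts. The TRAJ49 clonotype at 1.5 months had 5627 (1.02%, 0.990% to 1.04%) and the TRAJ43 clonotype at 5 months 4817 (0.886%, 0.861% to 0.911%). The intervals cover counting error only. The out-of-frame TRAJ56 clonotype had 783 counts, 2.08% of out-of-frame counts, and was found in no other library. No V gene of TRAV17 to TRAV21 was among these 5 clonotypes. These genes made up 12.6% of the region's functional and 11.3% of its out-of-frame clonotypes, so 5 clonotypes are too few to show a difference.

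Of 8647 distinct CDR3 amino-acid sequences in the region, 2428 (28.1%) were found in 2 or more samples, against 29.1% for the other J genes. The removal of clonotypes far more abundant in another library lowered these shares to 25.0% and 26.7%. Wide sharing was rarer in the region. In 10 or more samples there were 40 of its 8647 sequences against 299 of 32802 for the other J genes. In all 13 samples there were 4 against 61, and 3 against 55 after the removal. Of the 4 sequences of the region found in all 13 samples before the removal, the 3 with the highest mean share are shown. They were encoded most often by nucleotide forms with no inserted base, printed in lower case throughout for that reason.
TRAJ42 form, most often with TRAV14D-1: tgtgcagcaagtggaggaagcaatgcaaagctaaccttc
TRAJ43 form, most often with TRAV14D-1: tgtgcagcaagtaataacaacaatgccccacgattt
TRAJ56 form, most often with TRAV14-3: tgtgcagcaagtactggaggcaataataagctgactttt
The TRAJ42 sequence averaged 0.0733% of functional counts over the 13 samples, from 0.0178% to 0.225%, and had 13 nucleotide forms made with 5 V families. The TRAJ43 sequence averaged 0.0639% (0.000379% to 0.121%) with 13 forms and 6 families, TRAV19 among them, and the TRAJ56 sequence 0.0300% (0.00169% to 0.0804%) with 10 forms and 4 families, again with TRAV19. All 3 printed forms were most often joined to a TRAV14 gene, the commonest V family of the region.

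No measure of the region passed the test between time points with all clonotypes and samples included. The functional share of the region was 19.0% and 20.2% in the samples at 1.5 months, 19.8%, 17.9%, 18.2% and 18.4% at 3 months, 18.4% and 18.0% at 5 months, and 18.1%, 19.0%, 19.7%, 19.6% and 18.8% at 7 months. Group means were 19.6% ± 0.861 (SD, n = 2), 18.6% ± 0.847 (n = 4), 18.2% ± 0.303 (n = 2) and 19.0% ± 0.630 (n = 5), and only the 5-month samples did not overlap those at 1.5 months. The largest difference, -1.39 points from 1.5 to 5 months, had an exact permutation p of 0.181. By summed counts the group means were 19.8%, 18.9%, 17.7% and 18.3%, and among out-of-frame clonotypes 16.0%, 15.0%, 15.4% and 14.6%. CDR3 length stayed between 13.77 and 13.84 amino acids, inserted bases between 2.02 and 2.12, and the J-proximal V share between 12.3% and 12.9%. The smallest p of the 28 exact tests was 0.181, and all 28 adjusted p were 1. Without replicate 3 at 3 months, inserted bases were fewer at 7 than at 3 months by a difference of -0.135 (exact permutation p = 0.0179, not adjusted). The log2 clone-size difference between the region and the other J genes moved by 0.0145 from 3 to 7 months (exact permutation p = 0.857), by -0.126 with at least 2 counts and by -0.125 with at least 10 (exact permutation p = 0.0397 and 0.0317, not adjusted). The 126 splits of 7 against 3 months are too few for a single difference of any size to pass adjustment over 28 tests, so the adjusted p say little about stability between these times.

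No single member was called in the time contrasts tested, 7 against 1.5 months and 7 against 3 months. In edgeR's test 0% of the 43 J genes were called in the first and 0% in the second, and 0 of the 13 members had an unadjusted p under 0.05 in either. DESeq2 also called 0 genes in both. The smallest adjusted p of a member was 0.978 and 0.801. The group means of the 3 leading genes TRAJ43, TRAJ42 and TRAJ49 all lay between 2.13% (TRAJ49 at 3 months) and 2.48% (TRAJ43 at 5 months). TRAJ49 held 2.43% ± 0.209 (SD, n = 2) at 1.5 months and 2.29% ± 0.207 (n = 5) at 7 months, and TRAJ43 2.46% ± 0.145 and 2.45% ± 0.142.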

How the data were processed

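TCRα transcripts of rescued Treg cells from 13 samples were amplified by 5′ RACE and sequenced on an Illumina MiSeq. The authors assembled clonotypes with MiXCR, corrected them by frequency with VDJtools and deposited 1 table per sample, with GRCm38 named in the submitters' processing notes. Each deposited row gives a count, whose reads or molecules are not told apart in the sources used here, the authors' fraction of the sample, which was not tested, and the positions where V ends and J starts, used for inserted bases. Germline segments came from the GENCODE M21 annotation of GRCm38. In 21.7% of functional rows the deposited V and J overlapped, and these counted as 0 inserted bases.

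Clonotypes were counted once each, and clone size was the mean log2 count. Comparisons within samples used a two-sided exact sign-flip permutation test (8192 patterns) with Benjamini-Hochberg adjustment over 11 comparisons. Time points were compared by permuting the samples in all 540540 ways, correcting by the largest statistic of the 3 differences from 1.5 months, and 7 with 3 months over 126 splits, adjusted over 28 tests. Clonotype numbers per J gene or V family were tested by edgeR's quasi-likelihood F test after filterByExpr and TMM scaling (edgeR 4.0.16, R 4.3.3), adjusted over all segments tested. Python 3.11.15 with numpy 2.4.6, pandas 2.3.3, scipy 1.17.1 and matplotlib 3.10.9 did the rest. The code was tested on simulated data.

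Total counts of 509818 to 936831 per sample limit precision, and intervals are Wilson 95% intervals. GEO's titles gave groups and replicate numbers. They do not say that samples come from separate animals, so p-values measure the spread between these samples, and they do not pair equal replicate numbers across time points. Named J genes were the 6 with the highest mean share, those past an adjusted p of 0.05 and those at the boundary. Named V families were up to 6 in each direction with the smallest adjusted p, plus TRAV17 to TRAV21, TRAV1 and TRAV2. Named clonotypes were those with the highest share of functional counts at each time point. The others were the one with the highest share of out-of-frame counts and the 3 CDR3 amino-acid sequences shared most widely, with ties settled by mean share. The members and these lists were chosen with earlier results of these data known. Alternatives were count minimums of 2 and 10, equal depth, removal of any clonotype with a count 100 or more times larger in a different library, a boundary at TRAJ45, other comparator J genes, summed counts, DESeq2 1.42.0, library totals, no filter, in-frame rows with a stop codon added to the out-of-frame class, single V genes, a replicate block and each sample left out. Leaving out TRAJ32, inserted bases read from germline matches and V families of out-of-frame clonotypes were added after the data were seen. In-frame rows with a stop codon entered no comparison otherwise.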

Additional observations from a re-analysis of the deposited data

Results flagged for a closer look

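A sample far from the others of its group was found 3 times in the 56 groups of 4 or 5 samples tested, and chance flags about 1 group in 20. Replicate 3 at 3 months had 36.8% of the region's functional clonotypes without an inserted base, while the nearest of the other 3 samples had 32.1% and the lowest 31.3%. Replicate 2 at 3 months had TRAJ47 at 0.491% of functional clonotypes, below a nearest value of 0.767%. Replicate 3 at 7 months had TRAJ42 at 2.62%, above a nearest value of 2.18%. What set these samples apart was not tested.

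The tables also hold in-frame rows with a stop codon in the CDR3, which entered no comparison other than the alternative that adds them to the out-of-frame class. Of 461 such rows with a TRAJ gene, 57 (12.4%) carried a J gene of the region, with 1 to 8 in a sample.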

How the results depend on the processing

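The J-proximal and J-distal V shares, CDR3 length and trimming kept their direction and passed the test in each alternative run but the replicate block, which leaves 5 replicate numbers and cannot give an exact p below 0.0625. With that replicate block, CDR3 length differed by 0.409 amino acids, inserted bases by -0.123, the share without inserted bases by 3.48 points, J-proximal V by 11.98 points and J-distal V by -1.29 points. Trimming differed by 0.425 bases, out-of-frame J-proximal V by 10.1 points, the functional against out-of-frame share by 4.08 points (each p = 0.0625, exact) and out-of-frame clone size by 0.333 (exact p = 0.125). Deviations of equally numbered samples correlated at 0.747 over 14 pairs in the out-of-frame share and at 0.174 in CDR3 length, and from -0.370 to 0.00356 in the other 5 measures. The labels do not pair the numbers.

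The log2 clone-size difference of functional clonotypes depended on the measure. It was 0.245 with at least 2 counts, 0.0549 with at least 10 and 0.111 at equal depth. After removal of clonotypes 100 or more times as abundant in another library it was 0.122. It was 0.168 against TRAJ2 to TRAJ20 and -0.0550 against TRAJ24 to TRAJ40, while mean counts differed by -0.420 and median counts by 6.42. Over distinct CDR3 amino-acid sequences it was 0.0135 (exact p = 0.686). Leaving out 1 sample gave 0.0539 to 0.0949, past the threshold without replicate 4 at 3 months, replicate 1 at 5 months or replicate 2 at 7 months (exact p = 0.0171, 0.0420 and 0.0400). Against TRAJ2 to TRAJ20 inserted bases turned to 0.0453 more in the region, and the share without them was higher by 0.770 points. Against TRAJ24 to TRAJ40 the differences were -0.259 bases and 5.70 points by the deposited positions. Out-of-frame inserted bases differed by -0.0660 with at least 10 counts, by 0.488 against TRAJ2 to TRAJ20 and by 0.0319 against TRAJ24 to TRAJ40. With 1 sample left out they differed by 0.166 to 0.278. They passed the threshold without replicate 4 at 3 months, replicate 2 at 5 months or replicate 4 at 7 months (exact p = 0.0483, 0.0190 and 0.0483). The functional against out-of-frame share differed by 0.856 points with summed counts. Summed counts called 3 of the region's 13 tested J genes and 10 of all 43. Library totals gave log2 fold changes of 0.10 for TRAJ43 and 0.05 for TRAJ53. Of the V families, TRAV14 was at -0.03 with summed counts and at -0.11 in out-of-frame clonotypes, where TRAV4 was at -0.20 and TRAV8 at 0.42 and 7 families were called, while 60 single V genes of 81 were. Over time, clone size gave 1 unadjusted call (7 against 3 months) with at least 2 counts (exact p = 0.0397) and with at least 10 (exact p = 0.0317), and inserted bases 0 to 1 with 1 sample left out. The causes were not tested. TRAJ41 and TRAJ61 had 11 and 5 counts in all, too few to pass the filter on low counts. Without that filter all 15 named members were tested between functional and out-of-frame clonotypes. Of these, 6 were then called higher and 3 lower, while 24 of all 46 J genes were called.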

Other observations

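Among the region's functional clonotypes, those made without inserted bases were found in more than 1 library most often. Of 3843 distinct clonotypes with 0 inserted bases, 717 (18.7%, Wilson 95% interval 17.5% to 19.9%) were in 2 or more of the 13 libraries. The share was 11.8% (11.0% to 12.6%) of 5692 clonotypes with 1 to 3 inserted bases and 7.91% (7.01% to 8.91%) of 3085 with 4 or more. The intervals cover counting error only, and clonotypes present in several libraries of a pair that shared many are counted here as well. A further 6 functional clonotypes of the region carried a V name other than TRAV, 4 of them TRDV genes of the δ chain.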
